A study of Mus musculus with 39 samples.

Results

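The genes described are 9 genes of the MHC class II antigen presentation pathway in cells of mouse brown fat, followed over a diet time course. The members were given as gene symbols (H2-Aa, H2-Ab1, H2-Eb1, H2-DMa, H2-DMb1, Cd74, Ciita, Cd80 and Cd86) and were found by those symbols in the annotation of the array. The 9 genes, of 29411 gene symbols on the array, were read by 15 probes, and all 15 passed the filter on dim probes, which asked for a signal well above background on 6 or more of the 39 arrays. Where a gene had several probes, the one with the highest mean signal was used.

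MHC class II molecules are pairs of an alpha and a beta chain on the surface of antigen presenting cells, such as macrophages, dendritic cells and B cells, and they show peptides of ingested proteins to CD4+ T cells. Cd74, the invariant chain, binds newly made class II molecules and fills their groove until the H2-DM molecule helps to load a peptide. Ciita is the coactivator that switches the class II genes on together, and Cd80 and Cd86 give the second signal that a T cell needs. In fat tissue, class II genes are known as products of resident macrophages and dendritic cells.

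The mice were C57BL/6J, entered the diets as weanlings of 3-4 weeks and carried no engineered allele per the labels. The diets compared were a low fat diet (LFC, 10 arrays), a high fat and high sucrose diet (HFC, 11 arrays), and that same diet with the botanical formulation KAL-1 at 5, 20 or 75 µg (HF5, HF20 and HF75, 6 arrays each). LFC and HFC ran from Day 1 to Week 18 and the doses from Week 3 to Week 18, with 1 array per diet and time label, so that the spread against which a diet was set is the spread over time labels. The Week 12 array titled HF20 has a diet entry that names the high fat diet without the formulation, and it was kept under its title. The sources used here do not say whether an array held 1 animal or a pool.

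The labels call the samples infiltrating macrophages, that is, stromal vascular cells of brown fat. The macrophage marker Emr1 was well above background on 39 of 39 arrays, and so were Adipoq and Ucp1, which are made by fat cells and brown fat cells. On the log2 scale explained below, the mean level was 1.62 for Emr1, 4.16 for Adipoq and 5.61 for Ucp1. The B cell marker Cd79a was well above background on 11 arrays, and the dendritic cell marker Itgax on 27. RNA of several cell types was therefore read on these arrays, and fewer cells of a type cannot be told apart from less RNA per cell in any value below.

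Values are log2 of the processed signal minus the 75th percentile of the array, so that 0 is the level of a spot at that percentile and a step of 1 is a 2-fold change in signal. The 75th percentile ranged from 18.1 to 3974 intensity units (median 129.9), and the brightest array, HF20 Week 15, had 71.4% of its spots marked as outliers and lacked 4 of the 9 members. HF5 Week 12 and HFC Week 12 had 18.6% and 11.1% of spots marked. In 9 arrays the title carries BA or BAT, a token whose meaning the labels do not give, and these 9 arrays (2 of HFC, 3 of LFC, 2 of HF5 and 1 each of HF20 and HF75) had a median 75th percentile of 852.4 against 81.1 for the other 30.

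The sequences that carry the description are given first. In class II promoters the X box and the Y box are the elements at which the RFX and NF-Y complexes bind before Ciita is recruited. The 250 bases before the start site were read from the RefSeq promoter sequences of GRCm38.p6, which held an entry for 5 of the 9 genes, and were searched on both strands for CCAAT (core of the Y box) and for the core of the X box. Capitals mark the matches. The sequence before H2-Eb1 (chr17:34305617-34305866, + strand), before H2-Aa (chr17:34287824-34288073, - strand) and before H2-DMb1 (chr17:34152941-34153190, + strand) are shown because the first of these chains behaved unlike the other two on the arrays.
H2-Eb1: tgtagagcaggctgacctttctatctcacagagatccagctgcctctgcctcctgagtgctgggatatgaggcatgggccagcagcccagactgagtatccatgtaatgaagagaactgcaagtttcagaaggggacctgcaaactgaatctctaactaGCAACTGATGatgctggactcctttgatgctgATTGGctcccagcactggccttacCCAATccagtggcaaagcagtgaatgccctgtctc
H2-Aa: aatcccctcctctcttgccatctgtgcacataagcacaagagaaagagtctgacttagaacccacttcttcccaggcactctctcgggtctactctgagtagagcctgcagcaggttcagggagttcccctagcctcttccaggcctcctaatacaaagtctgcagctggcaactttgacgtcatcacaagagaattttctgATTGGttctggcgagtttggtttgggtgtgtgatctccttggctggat
H2-DMb1: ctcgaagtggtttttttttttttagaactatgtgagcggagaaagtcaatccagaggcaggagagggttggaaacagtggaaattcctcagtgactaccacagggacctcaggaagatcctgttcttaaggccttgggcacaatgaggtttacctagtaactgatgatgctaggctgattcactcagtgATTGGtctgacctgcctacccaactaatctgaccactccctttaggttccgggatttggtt
The H2-Eb1 sequence held the letters GCAACTGATG, 82 to 91 bases before the start, and CCAAT at 31 to 35 bases and, on the other strand, at 55 to 59 bases. For H2-Aa a CCAAT on the other strand lay 44 to 48 bases before the start and for H2-DMb1 57 to 61 bases. H2-DMa had 2 entries, and only the second held CCAAT, on the other strand at 194 to 198 bases. The Cd80 window held no CCAAT. Of the 32851 promoters in the table, read over 300 bases from 250 before the start to 50 after it, 37.4% held CCAAT, 0.861% the core of the X box and 0.301% both. The X box core was not matched in the windows of H2-Aa and H2-DMb1, nor in those of H2-DMa and Cd80. The search took a fixed pattern, so a window without a match may still hold an X box with other letters. The H2-DMb1 window holds gtaactgatg, close to the letters matched in H2-Eb1. A link between these matches and the array values was not tested. For the genes without an entry (H2-Ab1, Ciita, Cd86 and Cd74) no promoter was read here.

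Probes of the 2 chains of the I-A molecule are printed because the agreement between probes decides how far their values can be trusted. Capitals are not used in these lines.
H2-Aa (brightest of 2 probes): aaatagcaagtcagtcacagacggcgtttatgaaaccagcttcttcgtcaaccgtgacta
H2-Ab1 (second brightest of 3 probes): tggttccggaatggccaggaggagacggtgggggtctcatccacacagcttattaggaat
H2-Ab1 (dimmest of 3 probes): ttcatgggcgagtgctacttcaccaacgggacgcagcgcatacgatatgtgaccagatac
Per the array annotation these probes lie on chromosome 17. Over the 38 arrays with both values the other H2-Ab1 probes correlated with the brightest one at r = 0.93 and 0.89, and the second H2-Aa probe with the first at r = 0.84. Cd74 had 3 probes, which correlated with the brightest at r = 0.98 and 0.86. The second Cd86 probe correlated with the brightest only at r = 0.41 over 37 arrays, and Cd86 is therefore the least certain member with several probes. These correlations describe probes on the same arrays, which share the brightness of the array.

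The chains of the I-A molecule were measured on every diet. H2-Ab1, the beta chain, was well above background on 39 of 39 arrays. Its level ran from 2.95 over a median of 4.37 to 5.46 in LFC, from 1.40 over 4.51 to 6.05 in HFC, from 1.84 over 3.86 to 5.56 in HF5, from 0.30 over 4.11 to 5.44 in HF20 and from 1.82 over 4.22 to 4.70 in HF75. All 5 diets overlapped, and the means were 4.34 ± 0.87 (SD, n = 10) in LFC, 3.92 ± 1.46 (n = 11) in HFC, 3.72 ± 1.25 (n = 6) in HF5, 3.64 ± 1.76 (n = 6) in HF20 and 3.89 ± 1.05 (n = 6) in HF75. The lowest value was that of HF20 Week 15, the array with most spots marked.

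H2-Aa, the alpha chain, was also well above background on all 39 arrays and had a value on 38. It ran from -1.26 over 0.83 to 2.61 in LFC, from -1.39 over 0.86 to 2.66 in HFC, from -1.10 over 0.47 to 2.80 in HF5 and from -1.49 over 1.22 to 2.0 in HF75. The 5 values of HF20 were -0.08 (Week 3), 1.15 (Week 6), 2.19 (Week 9), 0.48 (Week 12) and 1.22 (Week 18), which overlap those of every other diet. Low values stood at Day 1 in both LFC (-1.26) and HFC (-1.20), at Day 14 in HFC (-1.39), at Week 12 in HF5 (-1.10) and at Week 15 in HF75 (-1.49).

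H2-Eb1, the beta chain of the I-E molecule, gave a dim signal. C57BL/6 mice do not transcribe H2-Ea, the partner chain, because its promoter is deleted, so that the I-E molecule is not made in this strain. That deletion concerns H2-Ea, and the cause of the dim H2-Eb1 signal was not tested. The H2-Ea probe was well above background on 8 of 39 arrays and that of H2-Eb1 on 22. H2-Eb1 ran from -5.40 over -4.50 to -1.39 in LFC, from -6.28 over -3.83 to 0.25 in HFC, from -6.02 over -3.64 to 2.16 in HF20 and from -5.29 over -3.71 to -2.39 in HF75, and its 5 values in HF5 were -1.63, -3.28, -5.06, -6.56 and -1.75. Its highest values stood on HF20 Week 15 (2.16), HFC Day 14 (0.25) and HFC Day 1 (0.07), 3 arrays on which H2-Ab1 was lowest (0.30, 1.71 and 1.40).

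Cd74, the invariant chain, was the member with saturated spots. It was well above background on 39 of 39 arrays and ran from 5.14 over 6.22 to 7.49 in LFC, from 4.13 over 6.25 to 6.93 in HFC, from 4.67 over 5.99 to 7.88 in HF5, from 3.07 over 6.46 to 7.42 in HF20 and from 4.02 over 6.68 to 7.23 in HF75. The ranges overlapped among all diets. The means were 6.19 ± 0.89 (SD, n = 10) in LFC, 5.86 ± 1.05 (n = 11) in HFC, 6.08 ± 1.22 (n = 6) in HF5, 5.85 ± 1.62 (n = 6) in HF20 and 6.35 ± 1.18 (n = 6) in HF75.

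A saturated spot gives only a lower bound. Cd74 was saturated on 1 array, HFC Week 12 (6.11, where the median saturated spot of the array lay at 6.10), and its true level there may be higher. On a bright array the limit of the scanner lies closer to the 75th percentile. The median saturated spot of an array lay between 4.05 (HF20 Week 15) and 11.8 (HF20 Week 9), and Cd74 came within 1 log2 unit of it on 2 of the 9 arrays with BA or BAT in the title and on 3 of the other 30. H2-Aa, H2-Ab1 and the other members had no saturated spot on any array. H2-Ab1 on HFC Week 12 (6.05) nevertheless lay only 0.046 below the median saturated spot of that array. Cd74 on LFC Week 12 lay 0.15 below that of its array. The HFC minus LFC differences of these genes at Week 12 therefore hold values at or near the limit. Cd74 on HFC Week 6 lay 0.19 below that of its array. The differences of the doses from HFC hold such values too, at Week 12 for both genes and at Week 6 for Cd74.

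**Figure D1:**
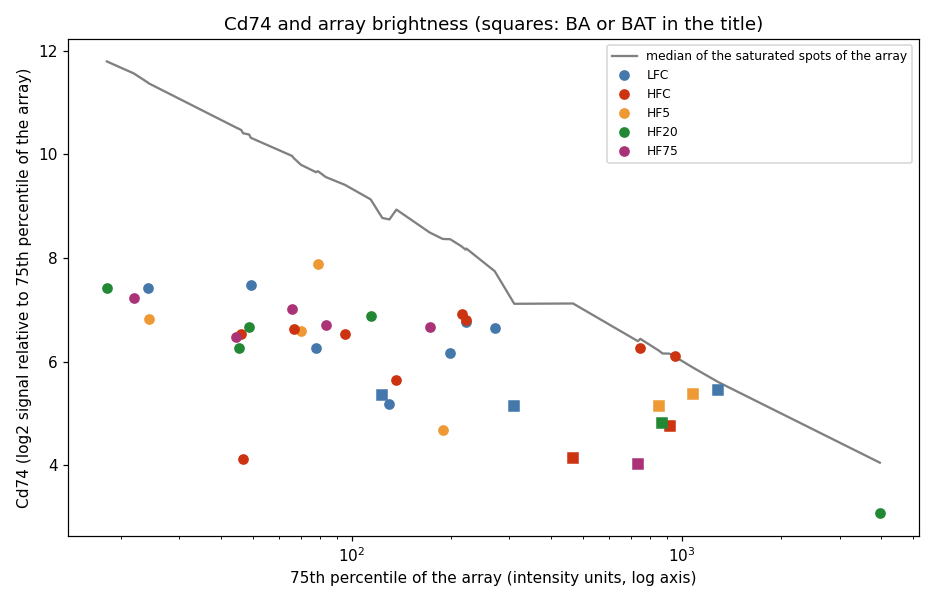
Cd74 (vertical axis, log2 signal relative to the 75th percentile) against the 75th percentile of each of the 39 arrays (horizontal log axis, intensity units), coloured by diet, with squares for the 9 arrays with BA or BAT in the title. The line joins the median saturated spot of each array, which falls from 11.8 to 4.05 with brightness, and Cd74 reaches it on HFC Week 12.

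H2-DMa and H2-DMb1 code for the 2 chains of H2-DM, which exchanges the Cd74 fragment for a peptide. H2-DMa had the smallest spread of the 9 members (SD 0.82 over 37 arrays, against a median SD of 1.15 over all tested genes) and was well above background on 36 arrays. It ran from -2.45 over -1.07 to -0.10 in LFC, from -2.66 over -0.95 to 0.82 in HFC and from -3.16 over -0.84 to -0.35 in HF75. Its 5 values in HF5 were -0.95, -0.13, -1.77, -2.36 and -2.03, and those in HF20 were -2.10, -0.89, -0.02, -2.12 and -1.07. The diets overlapped throughout.

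H2-DMb1 was well above background on all 39 arrays but fell far below its own median on a few. It ran from -2.12 over -0.45 to 2.82 in LFC, from -4.31 over 0.12 to 2.60 in HFC, from -4.95 over 0.74 to 2.10 in HF5, from -2.67 over 0.42 to 1.77 in HF20 and from -5.06 over 0.97 to 1.48 in HF75. HF75 Week 15 (-5.06), HF5 Week 9 (-4.95) and HFC Week 6 (-4.31) stood apart from the next lowest array, HF20 Week 15 (-2.67). The near-identical paralog H2-DMb2 lies beside H2-DMb1, and signal of one can reach the probe of the other.

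Ciita, the coactivator, was well above background on 31 arrays. It ran from -6.26 over -1.85 to 0.46 in LFC, from -4.39 over -2.03 to -0.11 in HFC and from -3.97 over -1.49 to -1.08 in HF75. In HF5 the 5 values were -3.39, -0.14, -2.91, -3.21 and -1.11, and in HF20 they were -1.27, -1.04, -0.63, -3.37 and -1.96. Both extremes were LFC arrays, Day 1 (-6.26) and Week 3 (0.46).

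The costimulatory ligands Cd80 and Cd86 gave dim signals. Cd80 was well above background on 11 arrays, 2 of 10 in LFC, 4 of 11 in HFC, 2 of 6 in HF5, 1 of 6 in HF20 and 2 of 6 in HF75, with a mean of -5.12 ± 1.69 (SD, n = 10) in LFC and -4.35 ± 2.20 (n = 10) in HFC. Cd86 was well above background on 24 arrays, with a mean of -3.93 ± 1.73 (n = 10) in LFC and -2.72 ± 1.67 (n = 11) in HFC. On HFC Day 14 and HFC Day 1 the levels of Cd80 were -1.02 and -1.06 and those of Cd86 0.19 and -1.25, all in the upper part of their ranges, while Cd74 stood at 4.13 on both arrays.

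**Figure D2:**
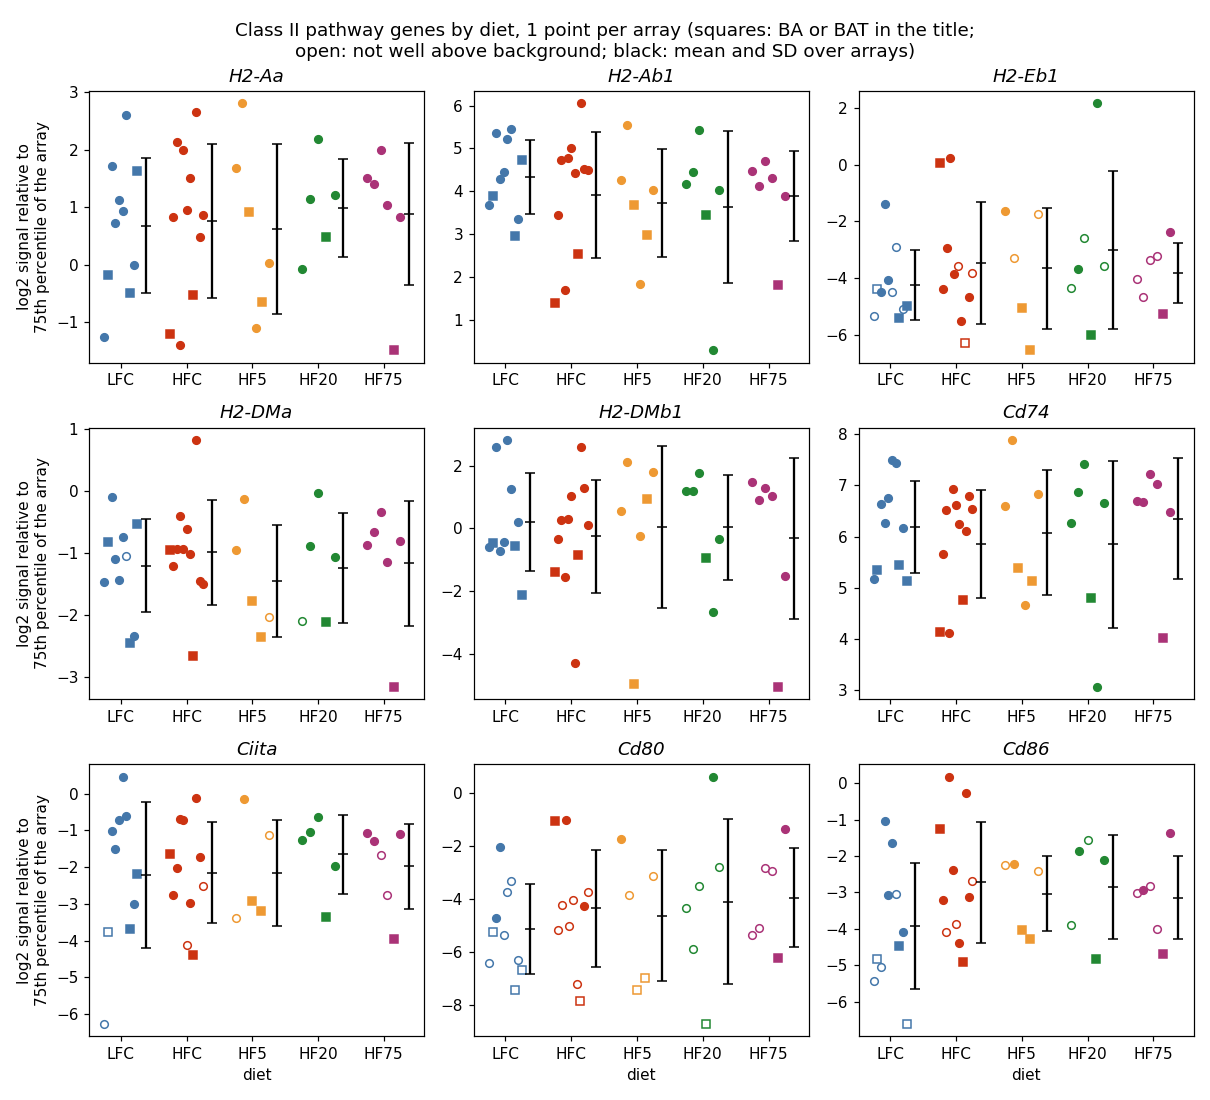
The 9 genes by diet (horizontal axis), 1 point per array, as log2 signal relative to the 75th percentile of the array (vertical axis, a scale for each gene). Black marks give the mean and SD, squares mark arrays with BA or BAT in the title and open points spots not well above background. The diets overlap for every gene, and open points are most frequent for Cd80, H2-Eb1 and Cd86.

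Whether the high fat diet changed the class II genes was asked in 1 fit over all 39 arrays, in which LFC and HFC share 10 time labels. None of the 9 members passed the test, and neither did any other probe (0% of 34039 tested, limma, diet and time label in 1 fit, Benjamini-Hochberg over all probes). At an unadjusted p under 0.05, 2.82% of all probes and 0 of 9 members passed. The fitted difference of HFC minus LFC was -0.44 (SE 0.44) for Cd74, -0.53 (SE 0.48) for H2-Ab1, -0.04 (SE 0.45) for H2-Aa, -0.48 (SE 0.88) for H2-DMb1, 0.16 (SE 0.38) for H2-DMa and 0.01 (SE 0.64) for Ciita. H2-Eb1 (0.75, SE 0.80), Cd80 (0.69, SE 0.93) and Cd86 (1.21, SE 0.62, unadjusted p 0.0623) had estimates above 0, which the normexp background correction turned to -0.21, -0.32 and -0.017. The Cd86 value is that of its brightest probe, and its second probe stood at 0.085 (SE 0.50). All adjusted p-values of limma over all probes were 0.9995 or more, and the median of the 9 differences was 0.01, beside 0.04 over all tested genes.

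The time labels did not run one way. Cd74 was higher in HFC at 5 of 10 labels and lower at 5, with differences from -2.67 (Week 9) to 1.39 (Week 18). H2-Ab1 was lower in HFC at 7 of 10, from -2.92 (Week 9) to 3.10 (Week 12), and H2-Aa higher at 7 of 10, from -3.14 (Week 9) to 3.16 (Week 12). Cd86 was higher in HFC at 8 of 10 labels, from -2.24 (Week 3) to 4.21 (Week 12), and H2-Eb1 at 8 of 9. At 5 of the 10 labels 1 array of the pair carried BA or BAT in its title and the other did not, the HFC array at Day 1 and Week 9 and the LFC array at Day 6, Week 12 and Week 18, so diet and title cannot be told apart at these labels. At the 5 labels where the titles did not differ, Cd74 was higher in HFC at 2 (-2.14 to 0.64), H2-Ab1 at 2 (-2.58 to 1.17), H2-Aa at 4 (-2.12 to 0.87) and Cd86 at 4 (-2.24 to 1.23). An interval of 2 SE around the Cd74 difference ran from -1.32 to 0.44, and that around H2-Ab1 from -1.49 to 0.44. These arrays cannot tell differences inside these bounds apart, and the bounds are no limit of detection.

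Day 14 and Week 0 are the same day by the methods, and serve as the only repeat. In LFC, Week 0 minus Day 14 was 0.49 for Cd74, 0.17 for H2-Ab1 and 0.39 for H2-Aa. In HFC the same step was 2.80, 3.06 and 3.38 for these genes, larger in size than all 10 differences between the diets for Cd74 and H2-Aa and than 9 of 10 for H2-Ab1. H2-Eb1 moved the other way in both diets, by -2.67 in LFC and -4.10 in HFC, as did Cd80 (-3.29 and -3.98) and Cd86 (-2.03 and -2.58).

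Pairs of LFC and HFC arrays scanned on the same date were available at 6 time labels (Day 10, Day 14, Week 0, Week 12, Week 15 and Week 18). Within these pairs Cd74 was higher in HFC at 4 of 6, from -2.14 to 1.39 with a median of 0.40. H2-Ab1 was higher at 3 of 6 (median 0.05) and H2-Aa at 4 of 6 (median 0.45). Cd86 was higher in HFC in 6 of 6 of these pairs (0.68 to 4.21), Cd80 in 5 of 5 (0.35 to 2.93) and H2-Eb1 in 5 of 5 (0.21 to 1.63). At Week 12 and Week 18 the LFC array of the pair had BA or BAT in its title and the HFC array did not, and the largest differences of Cd86 (4.21 and 3.92) and Cd80 (2.93, Week 18) stood there. In the 4 pairs without such a difference Cd86 was higher in HFC by 0.68 to 1.23, Cd80 by 0.35 to 2.04 and H2-Eb1 by 0.21 to 1.63. These counts were taken after the differences had been seen and the 3 genes are the dimmest members. The counts of Cd86 are those of its brightest probe alone.

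**Figure D3:**
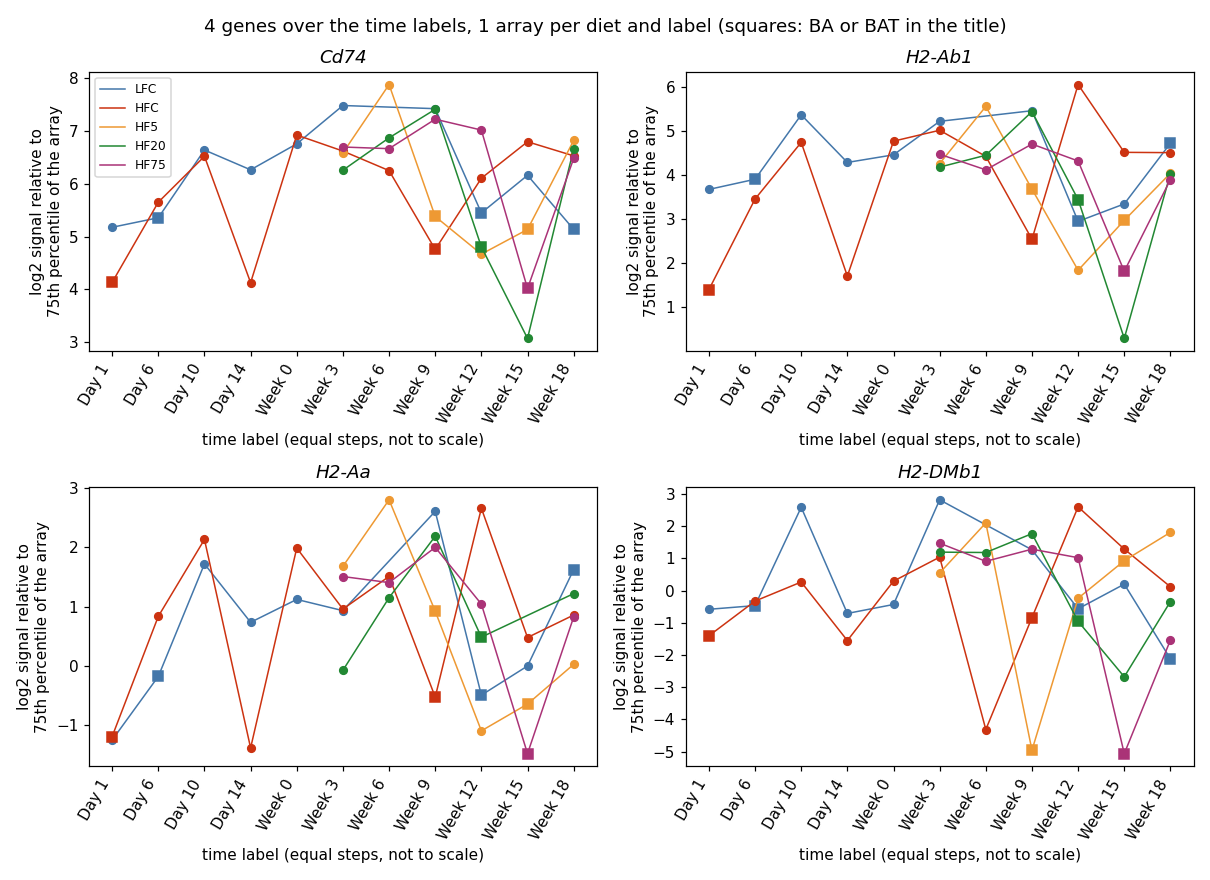
Cd74, H2-Ab1, H2-Aa and H2-DMb1 (vertical axes, log2 signal relative to the 75th percentile) at each time label (horizontal axis, equal steps), with 1 array per diet and label and squares for BA or BAT in the title. The diets cross repeatedly, with HFC below LFC at Week 9 for Cd74, H2-Ab1 and H2-Aa, and above it at Week 12.

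The doses, with arrays at Week 3 to Week 18, were each set against HFC in the same fit over all 39 arrays. No member passed at any dose, and no other probe did (0% of 34039 for HF5, HF20 and HF75 alike). At an unadjusted p under 0.05 the shares were 1.46%, 2.66% and 3.55% of all probes, and 0 of 9 members at each dose. The 27 differences lay between -0.62 (H2-Ab1, HF20, SE 0.60) and 1.42 (H2-Eb1, HF20, SE 1.01). Cd74 was at -0.04 (SE 0.55) in HF5, -0.28 (SE 0.55) in HF20 and 0.23 (SE 0.55) in HF75, and H2-Aa at -0.41 (SE 0.56), -0.30 (SE 0.59) and -0.14 (SE 0.56). The 3 comparisons share the HFC arrays.

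Side by side at each time label, Cd74 was higher than in HFC at 3 of 6 labels in HF5 (-1.66 to 1.63), at 3 of 6 in HF20 (-3.73 to 2.66) and at 4 of 6 in HF75 (-2.78 to 2.47). H2-Ab1 was lower at 4 of 6, 4 of 6 and 5 of 6. The titles of the pair differed at Week 15 for HF5, at Week 9 and Week 12 for HF20 and at Week 9 and Week 15 for HF75, and at the other labels Cd74 ran from -1.44 to 1.63, from -3.73 to 0.62 and from -0.05 to 0.91. The HFC value of Cd74 was saturated at Week 12 and near the limit at Week 6, where HF5 had its highest difference (1.63). Without HF20 Week 15 the Cd74 difference of HF20 was 0.13, on the other side of 0.

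The trend over time in the 21 arrays of LFC and HFC was given per doubling of the days on diet. None of the 9 slopes passed (0% of 34043 probes, and 11.9% at an unadjusted p under 0.05 beside 0 of 9 members). Slopes were 0.22 (SE 0.12) for H2-Aa, 0.20 (SE 0.12) for H2-Ab1 and 0.16 (SE 0.09) for Cd74, and -0.32 (SE 0.16) for H2-Eb1 and -0.30 (SE 0.19) for Cd80. The smallest adjusted p of limma over all probes was 0.437, for H2-Eb1.

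Other genes of the class II pathway gave the same picture of no call between diets. Of a list of 22 genes on the array, among them H2-Oa and H2-Ob (the chains of H2-DO, which restrains H2-DM), the proteases Ctss and Ctsl that trim Cd74, and the Rfx and Nfy factors, 21 were tested and 0 passed in any diet comparison or in the trend. Their median difference of HFC minus LFC was -0.00 and the smallest unadjusted p belonged to Nfyb, a subunit of the factor that binds CCAAT (-0.68, SE 0.32, adjusted p 0.9995, limma). The 12 genes of the class I pathway, which shows peptides made inside the cell, had 0 calls as well. In HF20 minus HFC, 11 of these 12 had estimates below 0 (median -0.72, beside -0.01 over all tested genes), and 6 of 12 had an unadjusted p under 0.05, against 2.66% of all probes. H2-D1 (-1.09, SE 0.47) and Tap1 (-1.07, SE 0.42), a peptide transporter, were among them, with adjusted p-values of 0.998 (limma). HF20 holds the Week 15 array with 71.4% of its spots marked. Estimates also lay below 0 for 12 of 12 in HF5 (median -0.43), 11 of 12 in HF75 (-0.37) and 10 of 12 in HFC minus LFC (-0.20). An unadjusted p under 0.05 was reached by 0, 1 and 1 of these. In the trend 12 of 12 lay below 0, and 7 had such a p, against 11.9% of all probes (limma).

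The 9 arrays with BA or BAT in the title were set against the other 30 with diet and time label in the fit. The token is a label and no condition of the study. All 9 members had lower estimates on these arrays, and 4 passed the test, Cd74 by -1.29 (SE 0.37, adjusted p 0.0053), H2-DMb1 by -2.31 (SE 0.76, 0.0134), Cd80 by -2.57 (SE 0.83, 0.0124) and Cd86 by -1.62 (SE 0.57, 0.0201; limma). In this comparison 52.4% of the 34039 probes passed, 31.8% lower and 20.5% higher, so that 4 of 9 is near the background of all probes. The median of the 9 differences was -1.29, beside -0.37 over all tested genes. H2-Aa (-0.88), H2-Ab1 (-0.91), H2-Eb1 (-1.55), H2-DMa (-0.78) and Ciita (-1.05) did not pass, and the second H2-Aa probe (-1.27, adjusted p 0.0205) and the second H2-Ab1 probe (-1.16, 0.0271) did.

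These calls depended on the scaling and on single time labels. With median scaling Cd80 alone passed, and Cd74 stood at -0.57 (adjusted p 0.320, limma). The normexp background correction turned Cd74 to 0.32 and H2-Ab1 to 0.43, and without Week 9 none of the 9 members passed, with Cd74 at -0.99 (adjusted p 0.0780, limma).

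**Figure D4:**
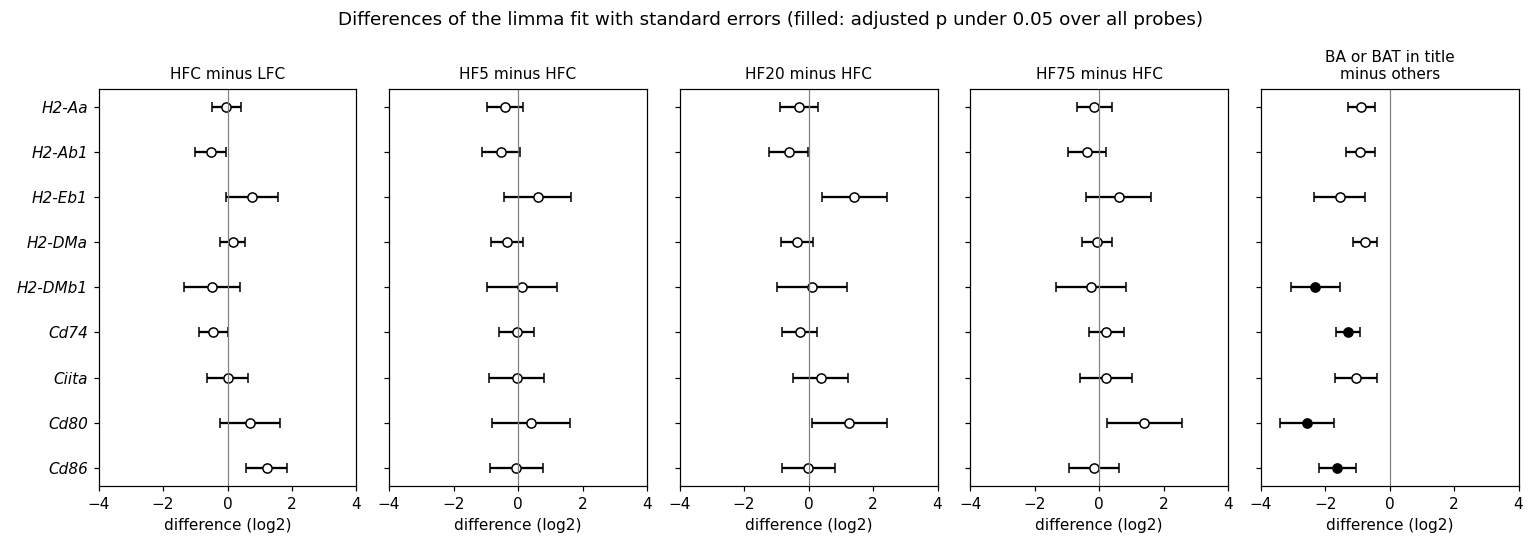
Differences of the limma fit (horizontal axes, log2) for the 9 genes in the 4 diet comparisons and for arrays with BA or BAT in the title, with standard errors. The differences between diets lie between -0.62 and 1.42 with no call, and all 9 title differences lie below 0, with 4 filled points, although Cd74 and H2-Ab1 lie above 0 with the normexp background correction.

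Cd74 lay between 4.02 and 5.45 on the 9 arrays, and above 5.45 on 26 of the other 30. The exceptions were LFC Day 1 (5.18), HFC Day 14 (4.13), HF5 Week 12 (4.67) and HF20 Week 15 (3.07). The scanner limit also differed with the title. The median saturated spot lay at a median of 6.21 (5.60 to 8.77) on the 9 arrays and of 9.61 (4.05 to 11.8) on the others. The median of Cd74 on the others was 6.63. The part of this limit in the Cd74 difference by title was not tested. Within a scan date that held both kinds of array (Week 12, Week 15 and Week 18), Cd74 was lower on the arrays with the token by 0.81, 0.77 and 1.54. H2-DMb1, H2-Eb1, Ciita, Cd80 and Cd86 were also lower at 3 of 3 of these dates, and H2-Aa, H2-Ab1 and H2-DMa at 2 of 3.

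Counts of calls in other lists stand beside the shares over all tested genes, of which 33.8% fell and 20.5% rose with the token. Of 13 macrophage markers 8 fell and none rose, with Itgam, a chain of an integrin of myeloid cells, lowest (-2.61, SE 0.45) and Emr1 not past the threshold (-1.06, SE 0.45, adjusted p 0.0505). Of 9 dendritic cell markers 6 fell, of 7 B cell markers 5, of 7 T cell markers 5 and of 7 neutrophil markers 7, the last including Retnlg (-5.29, SE 0.80). Of 8 fat cell markers 3 rose, among them Plin1 (3.41, SE 0.64) and Adipoq (2.21, SE 0.49), and Fabp4 fell (-2.36, SE 0.53). Of the 5 skeletal muscle markers none passed, and of the 5 endothelial markers 1 fell. Of the 21 other class II pathway genes 10 fell and 3 rose, H2-Ob falling most (-4.23, SE 0.71), while of the 12 class I genes none fell and 1 rose. The H2-Ea probe, near background on most arrays, was lower too (-2.52, SE 0.76, adjusted p 0.0084; limma). The parts of these cell types and of brightness in the member differences were not tested.

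The summed marker lists overlapped between the diets. The mean of the 13 macrophage markers ran from -0.97 to 1.23 over the LFC arrays and from -1.04 to 2.57 over the HFC arrays, and from -1.04 to 0.14 on the 9 arrays with the token against -0.94 to 2.57 on the others. For the 7 B cell markers the range was -5.42 to -1.28 in LFC and -5.64 to -1.75 in HFC, and for the 9 dendritic cell markers -4.85 to -1.29 and -4.69 to -1.47. None of these lists had a gene past the threshold between diets.

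The members differed in how closely they varied with Cd74. Over 39 arrays H2-Ab1 correlated with Cd74 at r = 0.88 (rho 0.78, two-sided permutation p 1e-05 for both, the smallest that 100000 resamples can give), the highest of 24442 genes ranked. H2-Aa followed at r = 0.78 (permutation p 1e-05, rho 0.69 with p 2e-05, rank 12), H2-DMb1 at r = 0.66 (permutation p 2e-05, rho 0.74 with p 1e-05, rank 551), Ciita at 0.54 (permutation p 0.0005, rho 0.59 with p 0.00015, rank 1630) and H2-DMa at 0.45 (permutation p 0.00539, rho 0.40 with p 0.0136, rank 3120). Cd86 stood at r = 0.28 (permutation p 0.0972) with a rho of 0.40 (p 0.0144), close to that of H2-DMa. Cd80 was at r = 0.07 (permutation p 0.678, rho 0.29 with p 0.0839) and H2-Eb1 at -0.14 (permutation p 0.397, rho 0.29 with p 0.0817). Over the residuals of the fit by diet and time label r was 0.82 for H2-Ab1, 0.72 for H2-DMb1, 0.66 for H2-Aa, 0.56 for Cd86, 0.49 for H2-DMa, 0.44 for Ciita, 0.31 for Cd80 and 0.04 for H2-Eb1. H2-Ab1 came first by each measure, and the order of the other members, H2-Aa and H2-DMb1 among them, depended on the measure. The median r over all genes was 0.15, and 8 relations were computed.

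Ordered by r over the arrays, H2-Ab1, H2-Aa and H2-DMb1 kept their places when arrays were left out. Without HF20 Week 15 and HF75 Week 15, the 2 arrays farthest from the median of Cd74, r was 0.82 for H2-Ab1, 0.76 for H2-Aa and 0.58 for H2-DMb1. Within the 9 arrays with the token it was 0.77, 0.61 and 0.31, and within the other arrays 0.88, 0.76 and 0.61. H2-Ab1 and H2-Aa correlated with each other at 0.88 over 38 arrays. Ciita and H2-DMa were less steady, with r of -0.13 and 0.25 within the 9 arrays with the token and 0.40 and 0.13 within the others, and so was Cd86, with -0.44 and -0.05.

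**Figure D5:**
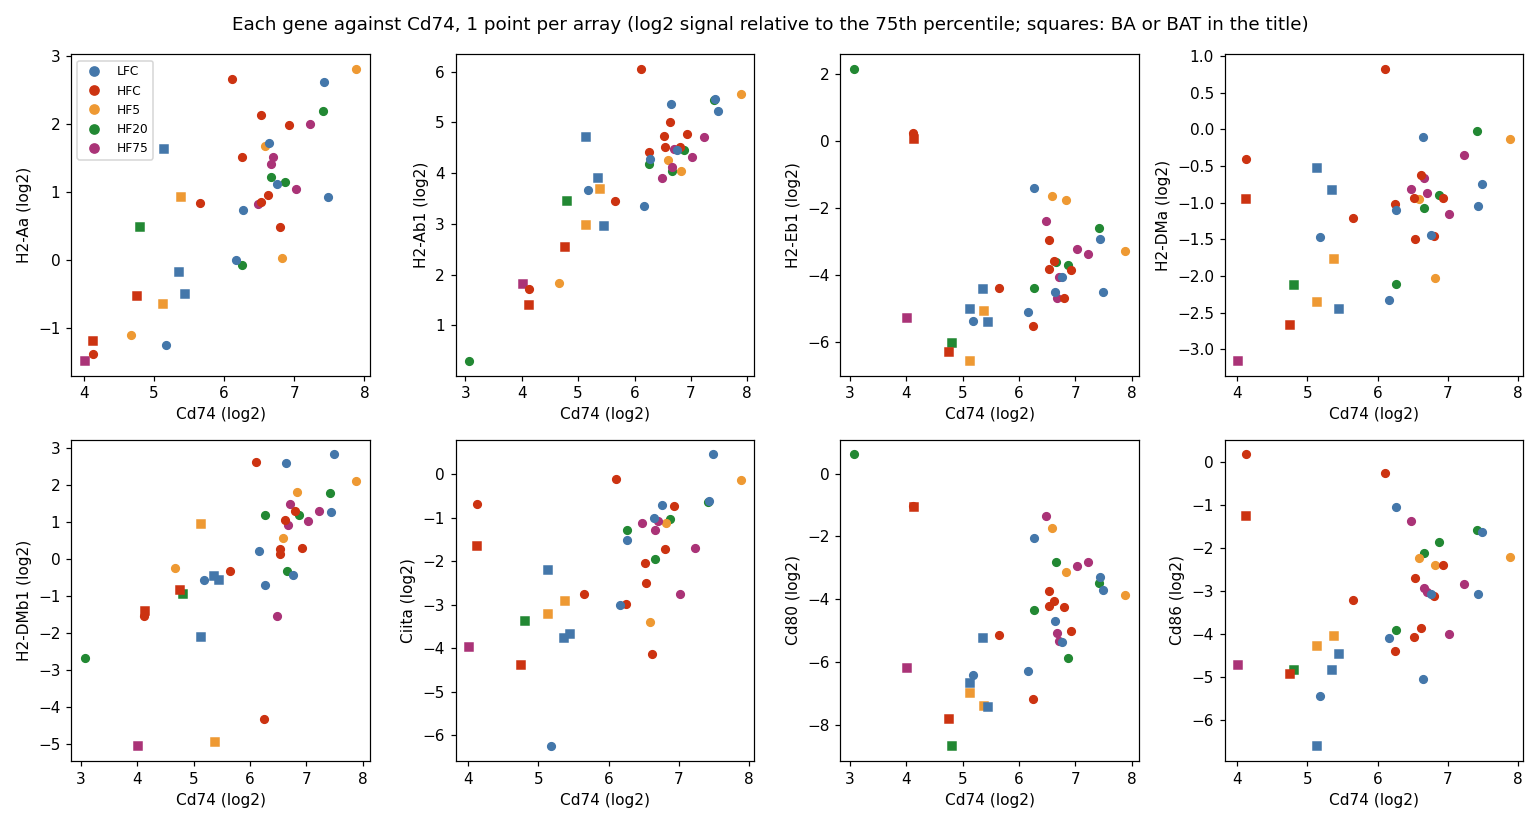
Each of 8 members (vertical axes, log2 signal) against Cd74 (horizontal axes, log2 signal), 1 point per array, coloured by diet, with squares for BA or BAT in the title. H2-Ab1 and H2-Aa lie along a line with Cd74 (r = 0.88 and 0.78), while H2-Eb1 and Cd80 do not (r = -0.14 and 0.07).

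H2-Eb1, Cd80 and Cd86 varied with each other. H2-Eb1 correlated with Cd80 at r = 0.91 (37 arrays) and with Cd86 at 0.77 (36 arrays). These are dim probes, and the level of dim probes as a whole varied between arrays. The median of the 6168 tested genes in the lowest 25% by mean signal, members left out, ran from -7.53 (HFC Week 9) to -2.23 (HF20 Week 15) and correlated with H2-Eb1 at r = 0.86, with Cd80 at 0.89 and with Cd86 at 0.62, but with Cd74 at -0.02, H2-Ab1 at -0.12 and H2-Aa at 0.02. HF20 Week 15, HFC Day 14 and HFC Day 1 ranked 1, 2 and 4 for this median. These correlations are descriptions over arrays that share brightness, and the part of the dim level in the 3 genes was not tested.

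Brightness of the array went with the members too. The log2 of the 75th percentile correlated with Cd74 at r = -0.67 (rho -0.60, permutation p 1e-05) and with H2-Ab1 at -0.49 (rho -0.37, permutation p 0.0018), while the median over all ranked genes was -0.29. H2-DMb1 was at -0.51 (permutation p 0.00071, rho -0.44) and H2-Aa at -0.29 (rho -0.23, permutation p 0.0773). Cd80, Cd86, Ciita, H2-DMa and H2-Eb1 lay at r of -0.44, -0.42, -0.39, -0.37 and -0.23. The rank correlation was -0.63 for Cd80 (permutation p 4e-05) and -0.59 for H2-Eb1 (permutation p 0.0002), beside -0.60 for Cd74. Within the 9 arrays with the token r was -0.06 for Cd74 and within the other 30 it was -0.54, and without HF20 Week 15 and LFC Week 12, the 2 arrays farthest from the median brightness, it was -0.59. With the 75th percentile in the fit, the Cd74 difference by title was -0.30, and 0 of 9 members passed. For each of the 9 members this relation was computed.

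The 10 genes most like Cd74 over the arrays were H2-Ab1 (r = 0.88), Gm6259 (0.81), Itgb7 (0.80), Gm5962 (0.80), Gm13911 (0.80), Gm12466 (0.80), Wdfy4 (0.79), Tgfbi (0.79), Rps3a (0.79) and Gm10247 (0.79). Itgb7 is an integrin chain of white blood cells, Wdfy4 is needed for cross-presentation by dendritic cells, Tgfbi codes for a matrix protein and Rps3a for a ribosomal protein, and the Gm symbols are predicted genes. Within the 9 arrays with the token r was 0.77 for H2-Ab1 and between -0.24 and 0.32 for the other 9 genes. Other class II genes ranked lower over all arrays, H2-DMb2 at 0.76 (rank 41), H2-Oa at 0.70 (rank 311) and H2-Ob at 0.51 (rank 1955). Marker genes stood at 0.60 for Emr1, 0.49 for Itgax and -0.07 for Adipoq, over arrays of all diets.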

How the data were processed

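RNA of brown fat stromal vascular cells was measured on 39 Agilent arrays of 1 colour. Per the file headers, the deposited scanner files hold spot intensity (processed signal) after background subtraction by Agilent Feature Extraction 10.5, while the labels name version 9.1, with no normalization between arrays. The series table gave gene symbols and probe sequences, and its 39 columns of log2 fold changes by the authors were not used. Arrays carry no read depth. Their number and the signal over background limit the precision.

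Processed signals were scaled by subtracting, on the log2 scale, the 75th percentile of the array. Spots marked as outliers were dropped, spots of a probe averaged, and probes kept when well above background on at least 6 arrays (34043 probes). The lists, members and tests were chosen with earlier results of these data known. Named genes are the 9 members, up to 3 genes of each other list, the defining markers and the 10 genes most like Cd74.

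Differences were fitted with limma 3.58.1 (R 4.3.3) by diet and time label over all arrays, and the fit was tested on simulated data. The time label was a block as planned. In the pairing check the correlation of HFC and LFC residuals was over 0.1 at 5 of 10 labels (median 0.18), so the labels do not all pair the arrays. Correlations used scipy 1.17.1 with 100000 permutations. The p-values measure only the spread between these arrays, which may be technical. Alternatives covered scaling, background, filters, marked and saturated spots, blocks, weights, the choice of probe and the leaving out of arrays. The last 2, the array's brightness as a covariate and 3 arrays with many marked spots left out, were chosen after seeing the data.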

Additional observations from a re-analysis of the deposited data

Results flagged for a closer look

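Of 38 groups of 4 to 10 arrays of a diet, 5 had an array whose gap to its neighbour was large against the range of the group (Dixon's test at 95%, which chance passes in about 1 of 20 groups). In 4 the array was HF75 Week 15, one of the arrays with BA or BAT in the title: Cd74 stood at 4.02 (next lowest 6.48), H2-Ab1 at 1.82 (next 3.90), H2-Aa at -1.49 (next 0.82) and H2-DMa at -3.16 (next -1.15). The fifth was H2-DMb1 on HF5 Week 9, another such array, at -4.95 (next -0.23). All 5 spots were well above background. The 4 flags on HF75 Week 15 are values of 1 array and are not independent.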

How the results depend on the processing

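No member was called in a diet comparison or in the trend under any alternative. Of the alternative values of the member differences, 27 of 242 lay on the other side of 0 in HFC minus LFC, 42, 34 and 32 of 242 for HF5, HF20 and HF75, and 10 of 215 for the trend, against 2 of 215 in the title comparison. The causes were not tested. Quantile normalization gave 2 probes called and Ciita at -0.33 in HFC minus LFC, Cd74 at -0.20 in HF75, 4 probes called and Cd86 at 0.040 in the trend, and 11124 probes called and 2 members called in the title comparison. With median scaling there were 2 probes called, H2-DMa at -0.17 and Ciita at -0.32 in HFC minus LFC, H2-DMa at 0.031 and Cd86 at 0.013 in the trend, and 1 of the members called by title. The normexp background correction turned both called and other values: H2-Aa to 0.055, H2-Eb1 to -0.21, Ciita to -0.20, Cd80 to -0.32 and Cd86 to -0.017 in HFC minus LFC, Cd74 to -0.33 in HF75, Ciita to -0.071 in the trend, and H2-Ab1 to 0.43 and Cd74 to 0.32 by title, with 28431 probes called there. Restricting the fit to probes well above background on all arrays, which H2-Eb1, H2-DMa, Ciita, Cd80 and Cd86 do not pass, gave 2 probes called in HFC minus LFC, 12 probes called in the trend, and 4923 probes called and 2 members called by title. Keeping marked spots put H2-Eb1 at -0.10 in HF75. Leaving out saturated spots gave 1 of the probes called in HFC minus LFC and Cd74 at 0.060 in HF5. The scan date as a random block put Ciita at -0.069 in HFC minus LFC.

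The time label pairs the arrays only by name at some labels. With no replicate block, H2-Aa stood at 0.075 in HFC minus LFC, H2-Eb1 at -0.18 and Cd74 at 0.22 in HF5, H2-Aa at 0.24 in HF20, and H2-Aa at 0.13 and H2-Eb1 at -0.36 in HF75, with no call. The methods' t-test, which has no block either, gave the same differences and 0 probes called after Benjamini-Hochberg.

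Array weights, whose estimation stopped short of its tolerance in 1 fit, gave 32 probes called, H2-Aa at 0.24 and Ciita at -0.065 in HFC minus LFC, H2-Aa at 0.12, H2-Eb1 at -0.24 and Cd74 at 0.13 in HF5, H2-Eb1 at -0.25 in HF20, H2-Eb1 at -0.35 and Cd74 at -0.20 in HF75, 158 probes called and Cd86 at 0.049 in the trend, and 9 members called by title. Without the 9 arrays with the token there were 2 probes called, H2-Aa at 0.052 and Ciita at -0.79 in HFC minus LFC, 3 probes called and Cd74 at -0.0091 in HF75, and Cd80 at 0.073 and Cd86 at 0.20 in the trend. Without HF20 Week 15 there was 1 of the probes called in HFC minus LFC and Cd74 at 0.13 in HF20. With the 3 arrays of many marked spots left out, H2-DMa was at -0.10 and Ciita at -0.34 in HFC minus LFC, H2-Aa at 0.15, H2-Ab1 at 0.081 and Cd74 at 0.21 in HF5, H2-Aa at 0.036, H2-Ab1 at 0.23 and Cd74 at 0.22 in HF20, and H2-Aa at 0.18 in HF75. The 75th percentile as a covariate gave 5 probes called and H2-Aa at 0.029 in HFC minus LFC, Cd74 at -0.40 in HF75, 4 probes called in the trend, and 3940 probes called and 0 members called by title.

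Leaving out each time label in turn gave 0 to 1 probes called in HFC minus LFC and in the trend, and 10064 to 20348 probes called and 0 to 8 members called by title, 0 without Week 9, 1 without Week 12 and 8 without Day 1. In HFC minus LFC the range was -0.38 to 0.27 for H2-Aa, -0.16 to 0.33 for H2-DMa and -0.48 to 0.51 for Ciita. In HF5 it was -0.73 to 0.091 for H2-Aa, -0.84 to 0.0089 for H2-Ab1 and -0.34 to 0.24 for Cd74, in HF20 -1.21 to 0.020 for H2-Ab1 and -0.75 to 0.38 for Cd74, and in HF75 -0.52 to 0.20 for H2-Aa, -0.76 to 0.013 for H2-Ab1 and -0.11 to 0.79 for Cd74. In the trend it was -0.012 to 0.18 for H2-DMb1, -0.11 to 0.17 for Ciita and -0.15 to 0.0062 for Cd86.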
